A study of Mus musculus with 3 samples.

Results

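Cholesterol synthesis, uptake and efflux were followed through 32 genes in c-kit-positive bone marrow cells that carried the Runx1-Runx1t1 fusion and in cells that did not. The genes are a given list, found by symbol among the 27998 features of each matrix, and all 32 were present in all 3 matrices. Of them, 18 encode enzymes of the route to cholesterol and 14 encode regulators, transport and efflux proteins and the first enzyme of an isoprenoid branch. The mCherry library held cells that express the reporter, sorted from a C57BL/6 mouse with Mx1-Cre and a heterozygous conditional knock-in of Runx1-Runx1t1 (AML1-ETO, a fusion found in acute myeloid leukemia) that has mCherry downstream. Poly(I:C) induces Cre in this model through the interferon-responsive Mx1 promoter. The non_mCherry library held cells of the same mouse without the reporter. The control library came from 1 wild-type C57BL/6 mouse, and the labels do not say whether that mouse received poly(I:C). All cells were sorted for c-kit and against DAPI and lineage markers. The study's title places the model in pre-leukemia with blocked differentiation.

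Cells make cholesterol from acetyl-CoA by way of mevalonate, farnesyl diphosphate, squalene and lanosterol. When sterols are scarce, Scap carries the precursor of the transcription factor SREBP-2, the product of Srebf2, from the endoplasmic reticulum to the Golgi, where it is cut and released to switch on genes of synthesis and uptake, and Insig1 and Insig2 hold Scap back when sterols are plentiful. Oxysterols activate the receptors LXR-alpha and LXR-beta (Nr1h3 and Nr1h2), which switch on the efflux transporters Abca1 and Abcg1 and the ubiquitin ligase Mylip, which marks lipoprotein receptors for degradation. In mice, loss of Abca1 and Abcg1 is known to expand hematopoietic stem and progenitor cells.

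After filtering, 10150 mCherry, 7850 non_mCherry and 8857 control cells were kept, with 92048702 unique molecular identifiers (UMIs) in mCherry, 86852479 in non_mCherry and 143339512 in control. The median cell held 8173 UMIs in mCherry, 9241 in non_mCherry and 15416 in control. Runx1t1, part of the fusion, was at 8.47 CPM (the gene's UMIs relative to all UMIs of the kept cells) in mCherry, against 0.311 in non_mCherry and 0.216 in control. Kit, the sorted receptor, was at 269 CPM in mCherry, 56.6 in non_mCherry and 66.8 in control. A B cell progenitor class made up 25.8% of the cells in non_mCherry. The mCherry library stood apart from the other two in many genes: Malat1, a nuclear RNA, was at 19778 CPM there, 5316 in non_mCherry and 4830 in control, and over all genes tested the median log2 ratio of mCherry was 0.11 over control and 0.12 over non_mCherry. Pairs of libraries shared 24 to 42 cell barcodes. Each group was 1 library, so no difference has a replicate check, no test was made, and the 95% intervals cover counting error only. In levels pooled over all cells of a library, fewer cells of a type and less RNA per cell cannot be told apart. Levels by cluster and class are given further below.

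The synthesis enzymes were lower in mCherry. Their summed level was 201 CPM in mCherry, with an exact Poisson interval of 199 to 204, against 422 CPM (418 to 426) in non_mCherry and 396 CPM (393 to 399) in control. The sum in mCherry was 0.508 times that of control (0.5 to 0.517) and 0.477 times that of non_mCherry (0.469 to 0.486). Of the 18 enzymes, 17 had their lowest level in mCherry. A gene is called lower or higher here where its log2 ratio, with 5 CPM added to both levels, is at least 0.32 in size. By that rule 12 of 18 enzymes were lower and 0 higher in mCherry than in control, with a median log2 ratio of -0.49, while 28.3% of the 9314 genes with a mean of at least 5 CPM were lower and 37.9% higher. Against non_mCherry, 13 were lower and 0 higher, with a median of -0.52, where 27.4% of all genes tested were lower and 38.4% higher. With TMM scaling the background became 35.1% lower and 29.9% higher over control, and 35% lower and 29.3% higher over non_mCherry. The enzyme counts just given are without TMM scaling, so they do not compare directly with these TMM shares. At 2-fold, 4 enzymes were lower than in control (8.26% of all genes tested) and 5 lower than in non_mCherry (7.87%). The counts include Lss, Tm7sf2 and Hsd17b7, whose mean was under 5 CPM, and of the 14 other genes Nr1h3 was also under that mean.

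**Figure D1:**
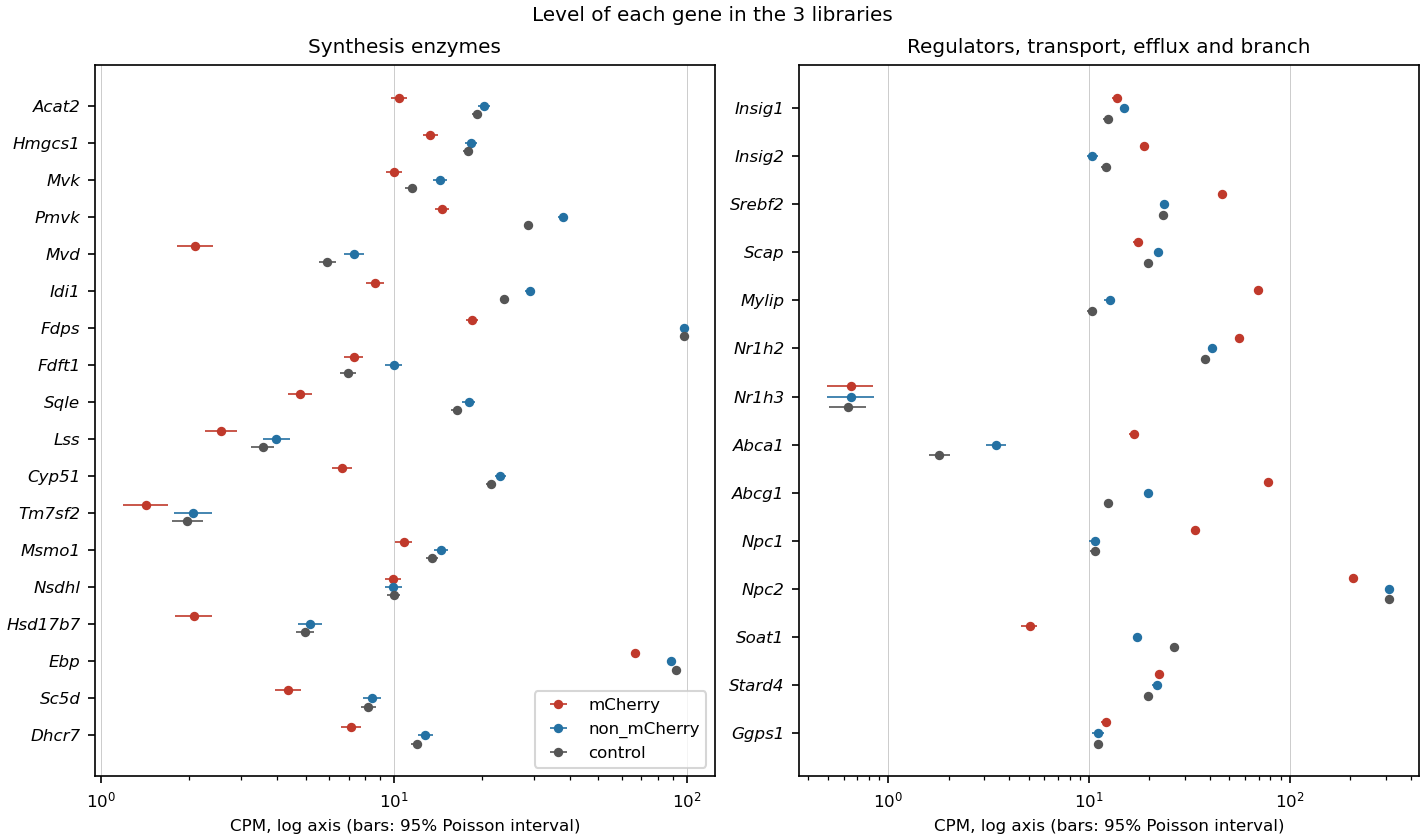
Level of each of the 32 genes in CPM on a log axis, in mCherry, non_mCherry and control, with bars for the 95% Poisson interval; the left panel has the synthesis enzymes in pathway order and the right panel the other genes. The mCherry point is the lowest for 17 of 18 enzymes and the highest for 9 of 14 other genes.

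At the head of the route, Acat2, which joins acetyl-CoA units, was at 10.4 CPM in mCherry, 20.4 in non_mCherry and 19.2 in control. Hmgcs1, which makes the precursor of mevalonate, was at 13.3 CPM in mCherry, 18.4 in non_mCherry and 17.9 in control. Its log2 ratio to control of -0.32 lay at the edge of the rule. Both were lowest in mCherry, with non_mCherry and control close together. The mevalonate kinase Mvk was at 10 CPM in mCherry, 14.4 in non_mCherry and 11.5 in control. The next kinase, Pmvk, was at 14.6 CPM in mCherry, 37.7 in non_mCherry and 28.8 in control. Mvd, which makes isopentenyl diphosphate, was at 2.1 CPM in mCherry, 7.29 in non_mCherry and 5.92 in control. Pmvk and Mvd were lowest in mCherry and highest in non_mCherry, with non_mCherry over control folds of 1.31 for Pmvk and 1.23 for Mvd (1.11 to 1.37).

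The largest difference among the enzymes lay at the isoprenoid steps. Fdps, which makes farnesyl diphosphate, was at 18.5 CPM in mCherry (17.7 to 19.4), against 98.1 in non_mCherry (96.1 to 100) and 98.1 in control (96.5 to 99.8). The mCherry level was 0.189 times that of control, with an interval of 0.179 to 0.199, and the log2 ratio was -2.13 to each of the other libraries. Fdps gave 9.2% of all enzyme UMIs in mCherry, 23.3% in non_mCherry and 24.8% in control. In the GENCODE annotation Fdps (chromosome 3, 89093588 to 89101959, minus strand, mm10) overlaps a predicted gene on the same strand, Gm43738, so reads in the overlap could be split between them. Idi1, which interconverts the isoprenoid building blocks, was at 8.62 CPM in mCherry, 29.1 in non_mCherry and 23.8 in control, a fold to control of 0.362 (0.335 to 0.391). Ggps1, which extends farnesyl diphosphate for the prenylation of proteins and is outside the route to cholesterol, was at 12.2 CPM in mCherry, 11.1 in non_mCherry and 11.1 in control. The branch enzyme thus passed the rule in no comparison, beside the large difference of Fdps.

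Among the sterol enzymes, the first committed one, the squalene synthase Fdft1, was at 7.3 CPM in mCherry, 10 in non_mCherry and 6.97 in control, the only enzyme with its lowest level in control. Sqle, the squalene epoxidase and a slow step of the route, was at 4.79 CPM in mCherry, 18 in non_mCherry and 16.4 in control, a fold to control of 0.292 (0.263 to 0.324). Cyp51, the lanosterol demethylase, was at 6.66 CPM in mCherry, 23.1 in non_mCherry and 21.4 in control, a fold of 0.312 (0.285 to 0.34). Squalene synthase and the epoxidase after it thus differed in their pattern across the libraries. Ebp, the sterol isomerase, was at 66.8 CPM in mCherry, 88.7 in non_mCherry and 92.1 in control. It gave 33.2% of the enzyme UMIs in mCherry, 21% in non_mCherry and 23.2% in control. Hsd17b7, a sterol ketoreductase, was at 2.07 CPM in mCherry, 5.19 in non_mCherry and 4.97 in control. Sc5d, the sterol desaturase, was at 4.36 CPM in mCherry, 8.42 in non_mCherry and 8.18 in control. Dhcr7, which reduces 7-dehydrocholesterol to cholesterol, was at 7.14 CPM in mCherry, 12.8 in non_mCherry and 12 in control. Msmo1, Nsdhl, Lss and Tm7sf2, which close the lanosterol ring or trim its methyl groups and double bonds, did not pass the rule against either library, with log2 ratios to control of -0.23, -0.01, -0.18 and -0.12. Nsdhl differed least, with 9.94 CPM in mCherry, 9.97 in non_mCherry and 10 in control. On mm10, Fdft1 overlaps Ctsb, Cyp51 overlaps Akap9, Lss overlaps 4930483K19Rik and Mvd overlaps Gm20388 on the opposite strand, and Tm7sf2 overlaps Vps51 on its own strand.

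Stretches of promoter are shown for some of the enzymes that passed the rule and held a match. SREBP-2 is known to act at promoters of synthesis enzymes together with the CCAAT-binding factor NF-Y. The sequences are from RefSeq on build GRCm38.p6 and are written 5' to 3' on the gene's strand. RefSeq promoters matched 26 of the 32 genes (15 enzymes and 11 others), and no sequence is given for Fdps, Fdft1, Sqle, Abcg1, Npc1 and Stard4. The 250 bases before each start were searched on both strands for 1 form of the sterol element (TCACNCCAC) and for CCAAT, whose reverse complement is ATTGG, and matches are in capitals.
Hmgcs1, chr13:119690104-119690320, plus strand: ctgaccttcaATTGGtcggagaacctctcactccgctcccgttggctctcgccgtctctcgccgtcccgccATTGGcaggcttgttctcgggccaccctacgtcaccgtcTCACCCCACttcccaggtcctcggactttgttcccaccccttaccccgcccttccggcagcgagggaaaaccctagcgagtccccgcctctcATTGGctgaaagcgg
Idi1, chr13:8885551-8885605, plus strand: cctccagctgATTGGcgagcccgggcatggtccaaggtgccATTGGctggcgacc
Mvd, chr8:122443435-122443492, minus strand: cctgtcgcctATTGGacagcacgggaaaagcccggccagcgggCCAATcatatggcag
Cyp51, chr5:4104712-4104736, minus strand: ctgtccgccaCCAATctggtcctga
Dhcr7, chr7:143830119-143830179, plus strand: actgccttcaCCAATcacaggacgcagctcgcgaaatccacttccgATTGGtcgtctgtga
The CCAAT letters lay in at least 1 promoter of 14 of the 15 enzymes matched (93.3%) and of 7 of 11 other genes (63.6%), against 37.5% of all 27025 genes in the table. Acat2, which passed the rule, held no match, while Lss, Msmo1, Nsdhl and Tm7sf2, which did not pass, held CCAAT. With CCAAT in 14 of the 15 enzymes matched, the letters could hardly separate enzymes that passed the rule from those that did not. The Idi1, Cyp51 and Dhcr7 stretches each lie before a start inside the annotated gene. The other listed starts of Dhcr7 held no match. The sterol element was matched for Hmgcs1 alone among the 26 genes, against 1.22% of all genes. TGTGGT, the core letters bound by Runx1, was matched for Lss alone among the 26, against 15.9% of all genes. A match is a description of letters and not a binding site.

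**Figure D2:**
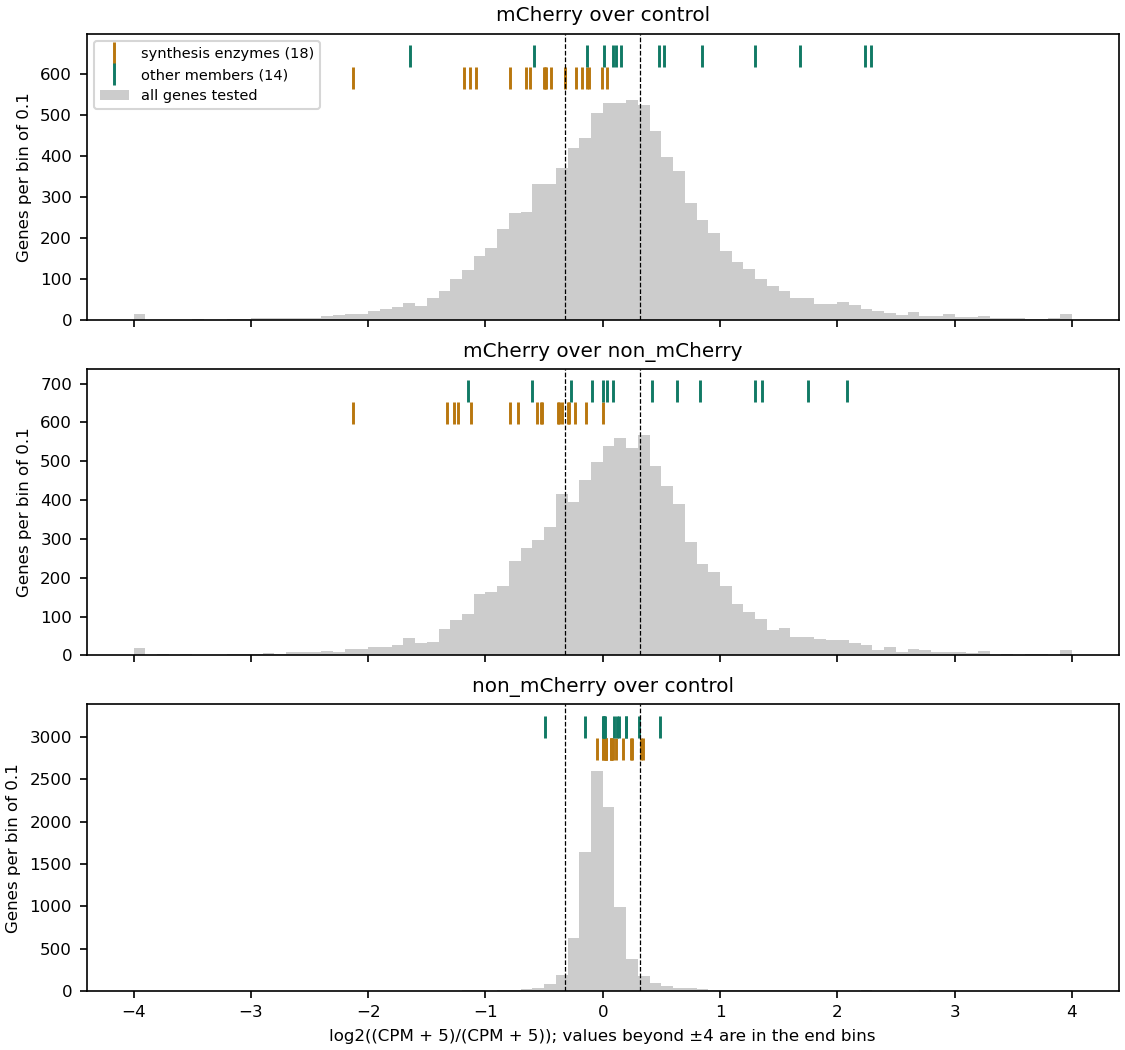
Log2 ratios with 5 CPM added, in bins of 0.1, for mCherry over control (top), mCherry over non_mCherry (middle) and non_mCherry over control (bottom). Grey bars count the 9314 genes tested, ticks mark the 18 synthesis enzymes and the 14 other genes, and dashed lines mark a log2 ratio of 0.32 either way. In both mCherry panels no enzyme tick lies past the right line, and the non_mCherry over control panel is narrow.

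The 14 other genes did not share the direction of the enzymes. By the same rule 7 were higher and 2 lower in mCherry than in control, and 7 were higher and 2 lower than in non_mCherry, with median log2 ratios of 0.32 and 0.25. Of all genes tested 37.9% were higher and 28.3% lower than in control, and 38.4% higher and 27.4% lower than in non_mCherry, so these counts are not far from the background. The higher ones were Insig2, Srebf2, Mylip, Nr1h2, Abca1, Abcg1 and Npc1, and the lower ones Npc2 and Soat1, in both comparisons. At 2-fold, 4 were higher and 1 lower in each comparison. Of all genes tested, 12.4% were higher and 8.26% lower than in control, and 11.6% higher and 7.87% lower than in non_mCherry. The 2 mCherry comparisons share the mCherry library, so they are not separate evidence. All 21 members that passed the rule over control kept their direction under each of 10 other settings.

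Abca1, Abcg1 and Mylip, named above as LXR targets, each had their highest level in mCherry. Abca1, which exports cholesterol to lipid-poor apolipoprotein, was at 16.7 CPM in mCherry (15.9 to 17.6), against 3.44 in non_mCherry (3.06 to 3.86) and 1.8 in control (1.59 to 2.03). Abcg1, which exports cholesterol to lipoprotein particles, was at 77.7 CPM in mCherry, 19.6 in non_mCherry and 12.5 in control, a fold to control of 6.22 (5.9 to 6.55). Mylip was at 69.8 CPM in mCherry, 12.7 in non_mCherry and 10.3 in control, a fold to control of 6.76 (6.39 to 7.16). All were also higher in non_mCherry than in control, by 1.91-fold for Abca1 (1.61 to 2.27), 1.57-fold for Abcg1 (1.47 to 1.68) and 1.22-fold for Mylip (1.13 to 1.32), of which Abcg1 alone passed the rule. Of the receptors themselves, Nr1h2 was at 56.1 CPM in mCherry, 40.8 in non_mCherry and 37.7 in control. Nr1h3 was at 0.652 CPM in mCherry, 0.656 in non_mCherry and 0.628 in control, with intervals that overlap. The promoter of Abca1 held the spaced repeat (DR4) to which LXR binds together with its partner RXR, searched on both strands as GGTNA and GGTCA in the same direction with 5 bases between them. The stretch is shown because it held the match, which reads on the opposite strand and is in capitals. Abca1 had the largest plain fold to control of these genes, at 9.29. With 5 CPM added, its log2 ratio to control of 1.68 was below 2.29 for Mylip and 2.24 for Abcg1.
Abca1, chr4:53159938-53159972, minus strand: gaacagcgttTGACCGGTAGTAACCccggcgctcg
Among all genes in the promoter table, 0.189% held that repeat, and of the 26 matched members Abca1 alone did.

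The regulators of synthesis were split. Srebf2 was at 46.1 CPM in mCherry (44.8 to 47.5), against 23.7 in non_mCherry (22.7 to 24.8) and 23.4 in control (22.6 to 24.2), a fold to control of 1.97 (1.88 to 2.06). Scap was at 17.5 CPM in mCherry, 22.1 in non_mCherry and 19.7 in control, which did not pass the rule. The messenger of the precursor was thus higher in mCherry and that of its escort was not, while these data hold no measure of the cleaved protein. Insig2 was at 18.9 CPM in mCherry, 10.4 in non_mCherry and 12.1 in control. Insig1, known as an SREBP target as well as a brake, was at 13.8 CPM in mCherry, 15 in non_mCherry and 12.4 in control, within the rule in each comparison.

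Genes of lysosomal exit and storage went opposite ways. Npc1, the membrane protein that passes cholesterol out of the lysosome, was at 33.6 CPM in mCherry, 10.7 in non_mCherry and 10.7 in control, a fold to control of 3.16 (2.97 to 3.36). Its soluble partner Npc2 was at 206 CPM in mCherry, 314 in non_mCherry and 311 in control. The pair thus differed in direction. Soat1, which esterifies cholesterol for storage, was at 5.06 CPM in mCherry (4.61 to 5.54), against 17.4 in non_mCherry (16.5 to 18.3) and 26.4 in control (25.5 to 27.2). It was the only member that passed the rule as lower in non_mCherry than in control, with a fold of 0.659 (0.621 to 0.7). Stard4, a soluble sterol carrier, was at 22.4 CPM in mCherry, 21.7 in non_mCherry and 19.6 in control.

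Between non_mCherry and control few members differed. The enzyme sum in non_mCherry was 1.07 times that of control (1.05 to 1.08). Of the 18 enzymes 0 were lower and 2 higher, Pmvk and Fdft1, and of the 14 other genes Soat1 was lower and Abcg1 higher, where 3.33% of all genes tested were lower and 5.11% higher. At 2-fold 0 of the 32 were lower or higher, where 0.161% of all genes tested were lower and 0.934% higher. None of the 4 passed the rule under every one of 11 other settings, so these calls depend on the setting.

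Other genes of the pathway were taken in lists that were also chosen with earlier results known. Their counts stand beside 37.9% of all genes tested higher and 28.3% lower in mCherry than in control, and in lists this short several lie near those shares. Of 8 counted genes of SREBP processing and sterol sensing, 4 were higher and 2 lower in mCherry than in control, with a median log2 ratio of 0.31. They ranged from Tmem97, a sterol-responsive membrane protein, at 19.2 CPM in mCherry against 76.9 in non_mCherry and 81.9 in control, to Mbtps2, the second protease that cuts the SREBP precursor, at 16.6 CPM in mCherry against 7.59 in non_mCherry and 8.34 in control. Of 9 genes of sterol transfer and ester hydrolysis, 6 were higher and 0 lower, with a median of 0.39. The highest was Nceh1, a cholesteryl ester hydrolase, at 187 CPM in mCherry, 21.3 in non_mCherry and 25.5 in control, followed by Gramd1b, a carrier of plasma membrane cholesterol, at 52.4 CPM in mCherry, 6.8 in non_mCherry and 8 in control. The hydrolase Nceh1 was thus higher in mCherry, where the esterifying enzyme Soat1 was lower. Of 12 genes of the prenyl branch, 6 were lower and 1 higher, with a median of -0.31, and the extremes ran from Pdss1, which makes the side chain of coenzyme Q, at 4.6 CPM in mCherry, 14.4 in non_mCherry and 16.4 in control, to Pggt1b, a geranylgeranyl transferase subunit, at 16.9 CPM in mCherry, 10 in non_mCherry and 9.86 in control. Of 6 receptor and uptake genes, 2 were lower, Scarb1 and Lrp8, and 1 higher, Vldlr, with a median of -0.19. Lpcat3, a phospholipid acyltransferase known as an LXR target, was the 1 of 5 oxysterol and efflux genes above 5 CPM and was at 78.3 CPM in mCherry, 37.2 in non_mCherry and 36.2 in control. Abcg4, of the same list and under that level, went the other way, at 0 CPM in mCherry, 1.16 in non_mCherry and 1.41 in control. Of the further synthesis genes, Acat1 and Lbr did not pass the rule over control, and Acat3, a near copy of Acat2 with which it could share reads, was at 0.0435 CPM in mCherry, 0.0806 in non_mCherry and 0.0977 in control. The next extremes over control, as log2 ratios, were Erlin1 at -0.47 and Erlin2 at 0.58 in sterol sensing, Stard3 at 0.09 and Osbp at 0.16 at the low end of transfer, and Nus1 at -0.61 and Pdss2 at 0.29 in the prenyl branch. Among the receptors the log2 ratios were -0.52 for Scarb1, -0.52 for Lrp8, 0.31 for Scarb2 and 0.49 for Vldlr. Against non_mCherry, where 38.4% of all genes tested were higher and 27.4% lower, the same lists gave 4 higher and 1 lower of 8 in sterol sensing, 5 higher and 0 lower of 9 in transfer, 2 higher and 4 lower of 12 in the prenyl branch, and 2 higher and 1 lower of 6 among the receptors, and of the further synthesis genes Lbr was lower, with a log2 ratio of -0.35. Between non_mCherry and control Vldlr (-0.41) and Lrp8 (-0.37) were lower, and of the other genes counted in these lists 0 passed the rule. In that comparison 3.33% of all genes tested were lower and 5.11% higher.

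Cells low and high in cell cycle genes were then taken apart, because mCherry held few cycling cells. Each cell was thinned to 2000 UMIs and its UMIs of 95 S and G2/M genes were summed, which gave a median of 6 in mCherry, 16 in non_mCherry and 17 in control. Cells with at most 14 were called low and cells with at least 21 high, bounds that divide the control cells in tertiles, so these are ranges of a score and not cell types. The low range held 91% of mCherry, 45.1% of non_mCherry and 37.2% of control cells, and the high range held 6.45% of mCherry (655 cells), 37.7% of non_mCherry (2958) and 37.1% of control cells (3289). On a bound lay 98 mCherry, 421 non_mCherry and 730 control cells. Free RNA in the droplets can add cycle UMIs to a cell, and its part was not tested.

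The enzymes were lower in mCherry in both ranges. In low cells their sum was 189 CPM in mCherry, 380 in non_mCherry and 373 in control, 0.506 times control (0.494 to 0.517), and 13 of 18 were lower where 26.6% of all genes tested were. In high cells the sum was 266 CPM in mCherry, 431 in non_mCherry and 396 in control, 0.673 times control (0.647 to 0.699), and 10 of 18 were lower where 21.7% of all genes tested were. With a cut on Mki67 and Top2a UMIs the ratio to control was likewise nearer to 1 in high cells, at 0.655 against 0.488 in low cells, but with phase calls (S and G2/M against G1) it was 0.641 in high and 0.641 in low cells, so a difference between the ranges depends on how they are drawn. Against non_mCherry 14 of 18 were lower in low cells (24% of all genes tested) and 11 in high cells (21.1%). Fdps was at 26.8 CPM in high mCherry cells, 95.5 in high non_mCherry cells and 92.7 in high control cells, and in low cells at 16.5 CPM in mCherry, 83.6 in non_mCherry and 90 in control. Idi1 was at 15.6 CPM in high mCherry, 34.2 in high non_mCherry and 25.8 in high control cells. Acat2 and Ebp passed the rule over control in low cells, with folds of 0.543 (0.488 to 0.605) and 0.741 (0.709 to 0.775), but in high cells their folds of 0.886 (0.757 to 1.03) and 0.948 (0.885 to 1.02) had intervals that include 1.

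The other genes gave 7 higher and 2 lower over control in each range. Of all genes tested, 36.3% were higher and 26.6% lower in low cells, and 36.8% higher and 21.7% lower in high cells. Over non_mCherry 6 were higher in each range, against 35.4% and 39.1%. Abcg1 was at 81.3 CPM in low mCherry cells, 29.3 in low non_mCherry cells and 18.4 in low control cells, and in high cells at 59.3 CPM in mCherry, 15 in non_mCherry and 10.8 in control. Mylip was at 49.1 CPM in high mCherry, 10.1 in high non_mCherry and 9.37 in high control cells. By these ranges both genes were lower in high cells than in low cells in each library, and higher in mCherry than in the others in both ranges. With the cut on Mki67 and Top2a UMIs, Mylip was at 10.9 CPM in low and 10.9 CPM in high control cells. Abcg1 was then at 13.4 CPM (12.5 to 14.2) in low and 12.3 CPM (11.1 to 13.5) in high control cells, with intervals that overlap. Srebf2 was at 30.9 CPM in high mCherry cells against 22 in high control cells, a fold of 1.41 (1.24 to 1.59), and its fold in low cells was 1.73 (1.62 to 1.85). Stard4 was higher in mCherry than in control in high cells (1.4-fold, 1.23 to 1.59) but within the rule in low cells (1.08-fold, 0.993 to 1.18).

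**Figure D3:**
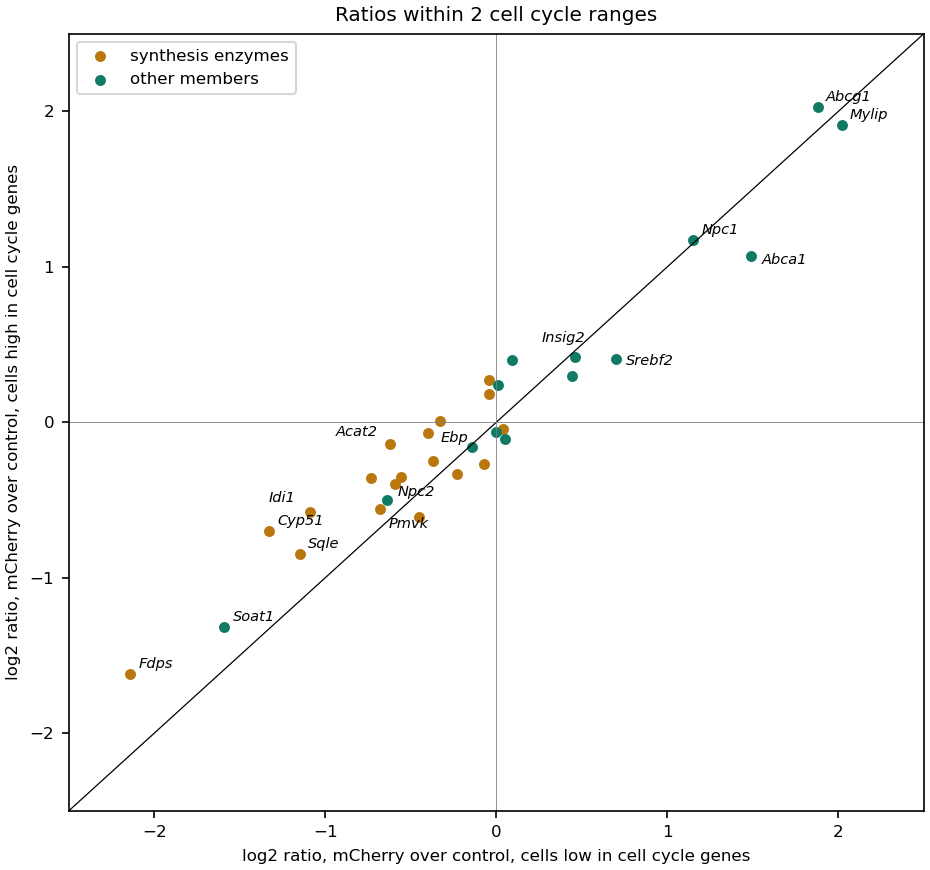
Log2 ratio of each of the 32 genes, mCherry over control with 5 CPM added, in cells low (x axis) and high (y axis) in cell cycle genes; the line marks equal ratios. Fdps is at -2.14 in low and -1.62 in high cells and Cyp51 at -1.33 and -0.70, while Abcg1 is at 1.88 and 2.03.

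Within a library the enzyme sum of high cells was 1.41 times that of low cells in mCherry (1.36 to 1.47), 1.13 times in non_mCherry (1.11 to 1.16) and 1.06 times in control (1.04 to 1.08). In mCherry 8 of 18 enzymes were higher in high cells and 0 lower, where 18.6% of all genes tested were higher. These included Idi1 at 2.17-fold, Acat2 at 1.95-fold and Cyp51 at 1.84-fold. In non_mCherry 2 of 18 were higher (18.7% of all genes tested), and in control 0 were (12.4%). The order of the libraries depends on how the ranges are drawn. With phase calls the sum of high cells was 1.4 times that of low cells in mCherry (1.36 to 1.45), 1.48 times in non_mCherry (1.42 to 1.54) and 1.4 times in control (1.34 to 1.46), so it was not larger in mCherry. With a cut on Mki67 and Top2a UMIs mCherry gave 1.29, non_mCherry 0.991 and control 0.96, so that the direction turned in non_mCherry and control. Of the 14 other genes, 4 were lower in high cells of mCherry (14.6% of all genes tested), 6 in non_mCherry (20.6%) and 3 in control (12.1%), and 0 were higher in each library.

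Clusters of cells, named where marker genes allowed, gave the levels by lineage. The mCherry cells fell in 6 clusters, each with 9 to 36 non_mCherry cells and at most 1 control cell. Clusters 3 and 7 were stem and multipotent progenitor-like, though the interferon-induced Ifit1 and the cytokine-induced Socs3 were among the leading genes of cluster 3 and the mast cell protease Cpa3 among those of cluster 7. Cluster 4 was basophil and mast cell-like with the mast cell proteases Cma1 and Mcpt4 among its leading genes. Clusters 0, 2 and 17 stayed unnamed, and the immediate early genes Nr4a1 and Fosb were among the leading genes of cluster 2. A cluster of 1 library may be that library and not a type. The non_mCherry and control cells fell in 11 classes or clusters each, and 10 of these were held in common. Monocyte-directed markers summed to 58.7 CPM in mCherry, 645 in non_mCherry and 1155 in control, with 7 of 7 lower in mCherry than in control and none at 0. Neutrophil-directed markers summed to 1287 CPM in mCherry, 7308 in non_mCherry and 12136 in control, with 6 of 6 lower. Stem and multipotent progenitor markers summed to 1449 CPM in mCherry, 128 in non_mCherry and 137 in control, with 7 of 10 higher in mCherry. Basophil and mast cell markers summed to 11187 CPM in mCherry, 685 in non_mCherry and 514 in control, with 4 of 7 higher and 3 lower in mCherry than in control. Erythroid markers summed to 829 CPM in mCherry, 1276 in non_mCherry and 1215 in control, with 7 of 9 lower and 1 higher. The part of this make-up in the library ratios was not tested as a whole, and the levels by class bear on it gene by gene.

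The enzyme sum ranged from 163 CPM in cluster 0 to 259 CPM in cluster 17 among mCherry clusters, from 312 to 488 CPM among non_mCherry classes and from 287 to 450 CPM among control classes. No mCherry cluster reached the lowest class of either library. Cluster 17, with a median of 30 cycle UMIs, was the one led by cell cycle genes. For 4 enzymes every mCherry cluster lay below every control class or cluster: Idi1, Fdps, Sqle and Cyp51. Below every non_mCherry class lay the same 4 and Mvd. For comparison, 4.17% of all genes tested lay wholly below control and 3.74% wholly below non_mCherry. Fdps ranged from 13.6 to 27 CPM over mCherry clusters, from 36.8 CPM in lymphoid-primed to 159 CPM in monocyte-directed progenitors of non_mCherry, and from 45 CPM in T, NK and innate lymphoid cells to 146 CPM in monocyte-directed progenitors of control. Sqle ranged from 2.26 to 6.86 CPM over mCherry clusters, from 10 to 28.2 CPM in non_mCherry and from 8.76 to 24.3 CPM in control, and was highest in erythroid progenitors of both. Its lowest control level was in neutrophils, a class of 140 cells with a median of 4896 UMIs. Intervals were not compared for these ranges, so that gap of Sqle may lie within counting error. The same limit holds for Cyp51, at 14.6 CPM in control neutrophils against at most 10.3 CPM over mCherry clusters. It also holds for Mvd, at 4.39 CPM in cluster 19 of non_mCherry (137 cells) against at most 2.74 CPM over mCherry clusters. The enzymes did not share one lineage pattern in non_mCherry and control: Fdps and Ebp were highest in monocyte-directed progenitors, and Idi1, Pmvk and Sqle in erythroid progenitors.

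**Figure D4:**
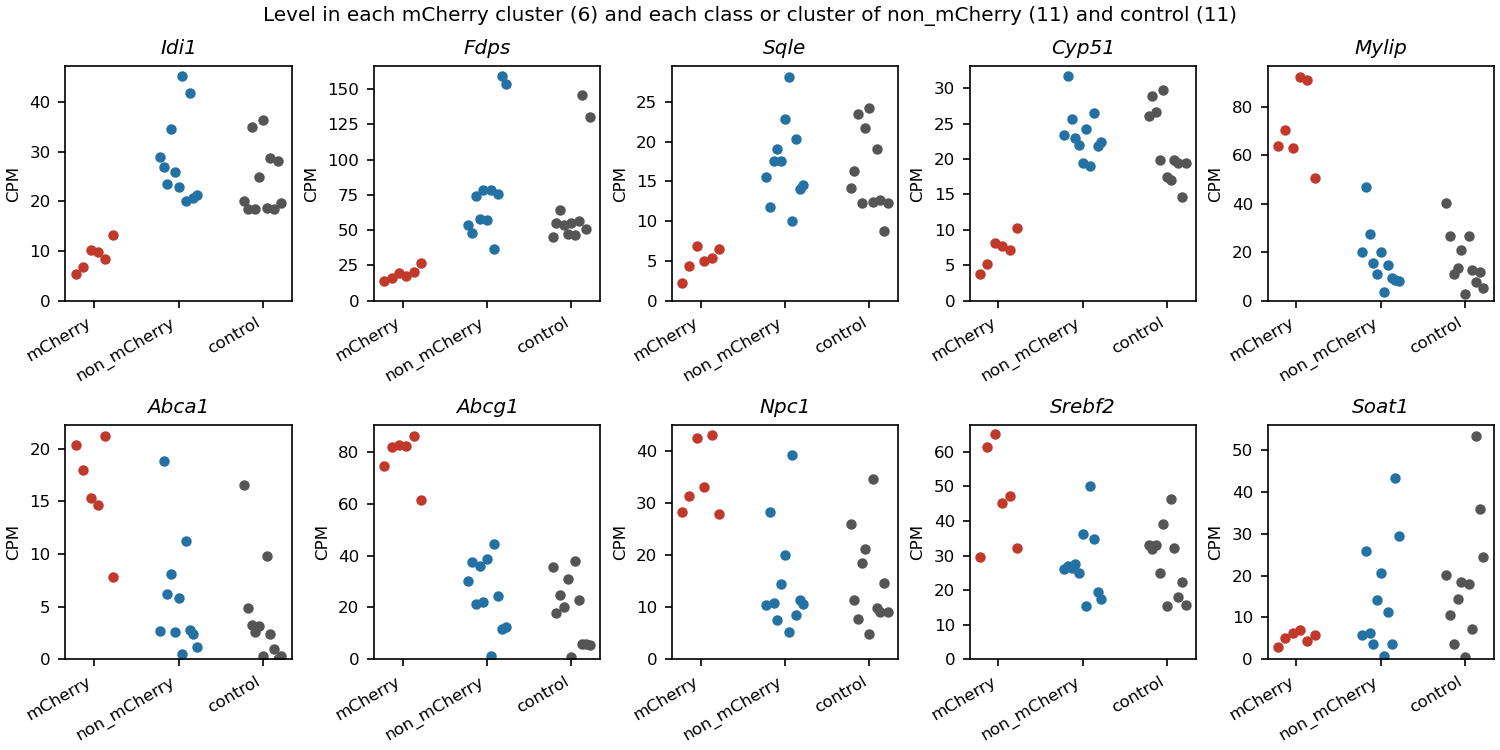
Level in CPM of 10 genes in each of 6 mCherry clusters and in each of 11 classes or clusters of non_mCherry and of control, 1 point each, on linear axes from 0; the sideways position within a group has no meaning. The mCherry points lie below all others for Idi1, Fdps, Sqle and Cyp51 and above all others for Mylip and Abcg1, and they overlap the others for Abca1, Npc1, Srebf2 and Soat1.

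Of the 14 other genes, Mylip and Abcg1 lay above every control class in every mCherry cluster, where 12% of all genes tested did. Above every non_mCherry class lay Insig2 as well, where 12.5% did. Counts of 2 and 3 of 14 genes are not far from those shares. Abcg1 ranged from 61.5 to 86 CPM over mCherry clusters. It was at 1.33 CPM in erythroid and 44.6 CPM in lymphoid-primed progenitors of non_mCherry, and at 1 and 37.7 CPM in those of control. Abca1 ranged from 7.83 to 21.2 CPM over mCherry clusters and was highest in T, NK and innate lymphoid cells of the other libraries, at 18.8 CPM in non_mCherry and 16.6 CPM in control, so the groups overlap. That class held 201 cells in non_mCherry and 141 in control, with medians of 2937 and 3600 UMIs, so its levels rest on few UMIs. Npc1 ranged from 27.8 to 43 CPM over mCherry clusters, against 39.1 CPM in lymphoid-primed progenitors of non_mCherry and 34.6 CPM in those of control. Srebf2 ranged from 29.7 to 65.2 CPM over mCherry clusters, against 50.2 and 46.4 CPM in the lymphoid-primed progenitors of non_mCherry and control. The lymphoid-primed class was thus the one nearest to the mCherry clusters in Abcg1, Npc1 and Srebf2, and its enzyme sum was the lowest of the classes of each library, at 312 CPM in non_mCherry and 287 CPM in control.

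Soat1 and Npc2 were highest in the monocyte lineage of the other libraries. Soat1 ranged from 2.94 to 6.94 CPM over mCherry clusters. In monocyte-directed progenitors it was at 43.3 CPM in non_mCherry and 53.3 CPM in control, and in erythroid progenitors at 0.858 CPM in non_mCherry and 0.47 CPM in control. Npc2 ranged from 181 to 240 CPM over mCherry clusters, against 466 CPM in monocyte-directed and 165 CPM in erythroid progenitors of non_mCherry, and 454 and 164 CPM in those of control. The mCherry clusters thus lay inside the range of the other classes for both genes. Monocyte-directed markers were lower in non_mCherry than in control, and of the pair Soat1 was lower there while Npc2 was not. Within the basophil and mast cell-like class, Npc2 in mCherry was 0.679 times its control level (0.643 to 0.717) and 0.634 times its non_mCherry level (0.599 to 0.671). Soat1 in that class was 0.651 times control (0.471 to 0.902) and 1.12 times non_mCherry (0.741 to 1.74), where the interval includes 1.

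The basophil and mast cell-like class was the one named class with at least 100 cells in all 3 libraries, though different clusters made it up. Cluster 4, led by Cma1 and Mcpt4, held all of it in mCherry, with 12 cells of non_mCherry and 1 of control, while clusters 11 and 22 held the rest of those libraries and 0 mCherry cells. The basophil proteases Prss34 and Mcpt8 were the leading genes of cluster 11 and the granzyme Gzmb that of cluster 22, so the class sets cells with unlike leading genes side by side. Its enzyme sum in mCherry was 0.616 times that of control (0.582 to 0.651) and 0.546 times that of non_mCherry (0.515 to 0.579). In it 10 of 18 enzymes were lower and 0 higher than in control, where 24.1% of all genes tested were lower, and 8 of 14 other genes were higher, where 37.8% were. Between non_mCherry and control, the enzyme sum was above 1-fold in each of 7 shared named classes. It was 1.22 times control in erythroid progenitors (1.18 to 1.26), 1.2 in megakaryocyte-like cells (1.15 to 1.26), 1.14 in neutrophil-directed progenitors (1.1 to 1.18), 1.13 in basophil and mast cell-like cells (1.06 to 1.2) and 1.08 in monocyte-directed progenitors (1.06 to 1.11). In lymphoid-primed progenitors (1.09, 0.939 to 1.26) and T, NK and innate lymphoid cells (1.16, 0.983 to 1.38) the interval included 1. Among the shared unnamed clusters its interval was 1.16 to 1.36 in cluster 19, 0.969 to 1.09 in cluster 5 and 0.878 to 0.963 in cluster 1. The ratio was thus above the whole-library value of 1.07 in all 7 named classes and below 1 in cluster 1. The interval included 1.07, however, in monocyte-directed progenitors, basophil and mast cell-like cells, lymphoid-primed progenitors and T, NK and innate lymphoid cells.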

How the data were processed

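The authors deposited, for each of 3 droplet libraries of the 10x Genomics type, a sparse matrix of UMI counts with barcodes and gene names. The submitters' processing notes name Cell Ranger 6.1.2 and the build mm10; per the file headers the software version was 3.1.0, a difference not settled here. Kept cells had at least 1000 genes, at least 2000 UMIs and at most 10% of UMIs from mitochondrial genes, and cells were dropped with a Scrublet score (scanpy 1.11.5) above 0.25, 2.58% of mCherry, 2.56% of non_mCherry and 2.31% of control cells.

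The UMIs of each gene were added up over the kept cells of a library and expressed as CPM of that library's sum. Intervals are exact Poisson intervals at 95% for levels and exact conditional intervals for folds, and UMIs lost to shallow sampling are not covered. Log2 ratios used 5 CPM added to each level. For the clusters, 2000 variable genes less the 1 member among them, 30 principal components and 15 neighbours fed Leiden clustering (leidenalg 0.10.2) at resolution 1.0, which gave 28 clusters. A cluster took the name of the marker list with the highest mean score where that score was at least 1.0, at least 3 markers were up and markers of other classes did not outnumber its own among the 10 leading genes, a rule set after the data were seen. A class needed at least 100 cells in a library. TMM factors came from edgeR 4.0.16, used for scaling alone. With 1 library a group, no model was fitted. Gene locations are those of GENCODE M21, which matched 27645 features. The cycle lists held 42 S and 53 G2/M genes, 95 in all. All 32 members are named. Of each further list the extremes by ratio are named. The members, lists and rules were chosen with earlier results of these data known. The ratio and its intervals were tested on simulated data.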

Additional observations from a re-analysis of the deposited data

How the results depend on the processing

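No paired analysis was possible because each group is 1 library. Depth limits members under 5 CPM and classes of few cells; the control mouse, treatment and library cannot be told apart. Of members past the rule, 21 of 21 for mCherry over control and 21 of 22 for mCherry over non_mCherry kept their direction under each of 10 other settings, and 17 and 18 also kept the size. The size was lost under at least 1 setting by Acat2, Ebp, Hmgcs1 and Nr1h2 over control, and by Acat2, Ebp, Mvk and Nr1h2 over non_mCherry. Ebp turned in cells high in cell cycle genes, with a log2 ratio of 0.02 over non_mCherry. For non_mCherry over control, 4 of 4 kept their direction and 0 of 4 (Abcg1, Fdft1, Pmvk, Soat1) kept the size under all 11 settings. Of the 14 other genes, 0 were lower by the mean within lineages, against 1 over whole libraries.

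The summed enzyme ratio moved as follows. For mCherry over control it was 0.463 with median-of-ratios scaling, 0.446 with TMM, 0.52 without mitochondrial genes and Malat1, 0.673 in high-cycle cells and 0.564 without Fdps and Ebp. For mCherry over non_mCherry these settings gave 0.427, 0.415, 0.488, 0.618 and 0.493, and it was 0.501 with cells thinned to 2000 UMIs, 0.501 with each cell weighing the same and 0.497 in low-cycle cells. For non_mCherry over control it was 1.09 with median-of-ratios scaling, 1.01 thinned, 1.01 with each cell weighing the same, 1.02 in low-cycle and 1.09 in high-cycle cells, 1.14 as the mean within lineages and 1.14 without Fdps and Ebp, a sum chosen after seeing the data. With phase calls in place of tertiles, high over low was 1.48 in non_mCherry and 1.4 in control, and mCherry over control was 0.641 in low and 0.641 in high cells. With Mki67 and Top2a UMIs, high over low was 1.29 in mCherry, below 1 at 0.991 in non_mCherry and 0.96 in control, and mCherry over control was 0.488 in low cells. The cause of these moves was not tested. With no filter on low values, 15.7%, 15.7% and 1.96% of 19125 genes were lower in mCherry over control, mCherry over non_mCherry and non_mCherry over control.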

Other observations

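The lineages themselves differed in the regulators of cholesterol synthesis, in ways the library totals do not show. Scap was at 44.2 CPM in B cell progenitors of non_mCherry, a class with under 100 cells in control, and at 40.2 CPM in lymphoid-primed progenitors of non_mCherry against 22.7 CPM in those of control. In basophil and mast cell-like cells it was at 11 CPM in non_mCherry and 13.6 CPM in control. Nr1h2 was at 65.3 CPM in B cell progenitors of non_mCherry, against 32.5 CPM in its erythroid progenitors. Insig1 was at 22.3 CPM in lymphoid-primed progenitors of non_mCherry and 24.2 CPM in those of control, and at 9.9 CPM and 7.17 CPM in the erythroid progenitors of the same libraries. The lymphoid-primed class held 106 cells in non_mCherry and 191 in control, so its levels rest on few UMIs.

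Hmgcs1, at the start of the route, and Idi1, further along it, were ordered differently across lineages. In T, NK and innate lymphoid cells Hmgcs1 was at 34.1 CPM in non_mCherry and 37.9 CPM in control, and in erythroid progenitors at 10.1 CPM and 9.11 CPM. Idi1 was at 45.2 CPM in erythroid progenitors of non_mCherry and 36.4 CPM in those of control, and at 27 CPM and 20.1 CPM in T, NK and innate lymphoid cells. The T, NK and innate lymphoid class held 201 cells in non_mCherry and 141 in control, so its levels rest on few UMIs. Stard4 was at 31.9 CPM in megakaryocyte-like cells of non_mCherry and 36.7 CPM in those of control.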
